A study of Mus musculus with 8 samples.

Results

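The protein tyrosine phosphatase genes were taken as all mm10 protein-coding genes named Ptpn followed by a number, or Ptpr followed by a letter and at most a number, with Ptprcap left out. The rule found 37 genes among 21883 protein-coding genes on placed chromosomes. A further match, Ptprv, is annotated as a transcribed pseudogene and was not a member. Of the 37 members, 17 encode cytosolic enzymes (Ptpn) and 20 receptor-type proteins (Ptpr). The rule set 5 members apart as blood-restricted, namely Ptprc, Ptpn6, Ptpn22, Ptpre and Ptprj, and 32 formed the rest. Ptprj is also known from epithelium and endothelium, and Ptpn7, counted among the rest, is known mainly from blood cells.

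Binding of the ETS-family transcription factor PU.1 was mapped by chromatin immunoprecipitation and sequencing in AML246, a mouse acute myeloid leukaemia cell line grown with IL-3. Doxycycline (Dox, 0.1 ug/mL) was given from day 0 and taken away on day 12 of a 24 day course, and the titles call the first arm restoration and the second knockdown of PU.1. The restoration libraries were untreated cells (day 0) and cells after 4, 8 and 12 days of Dox, all sorted as total viable cells. The knockdown libraries were titled Day 12- 4, Day 12- 8 and Day 12- 12, and their treatment labels go against those titles. The treatment given for Day 12- 4 is 12 days of Dox, with viable cells sorted on high Cd11b, that for Day 12- 8 is 4 days off Dox, and that for Day 12- 12 is 8 days off Dox. These 3 libraries are named here by title, and their place in time is not relied on. Of 8 labelled samples 7 were used, and the one labelled with 12 days of withdrawal was not analysed here. The labels do not describe the construct through which Dox acts on PU.1, and all libraries come from this single line. No expression was measured, so neither the cell type nor the activity of any gene could be checked.

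Each library was a list of peak summits, the called positions of strongest signal, and each summit carried a score, read as −log10 of its q-value. The lists held 8043, 57424, 33962 and 86271 summits for days 0, 4, 8 and 12, and 9868, 21377 and 148415 for the 3 knockdown libraries in the order of their titles. Every title had 1 library, so there is no replicate error and no test between libraries, and sequencing depth is unknown. Any summit between 10 kb before and 10 kb after a gene's body was counted as a site of that gene. Scores and numbers of sites belong to each list, so a difference between libraries is not a measured gain or loss of binding, and a missing call does not show absence of binding.

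Protein tyrosine phosphatases remove phosphate from tyrosine residues and so oppose tyrosine kinases downstream of cytokine, growth factor, antigen and Fc receptors. In blood cells the cytosolic SHP-1 (Ptpn6) is recruited by inhibitory receptors and dampens signalling, while SHP-2 (Ptpn11) promotes signalling through Ras. The receptor-type CD45 (Ptprc) removes the inhibitory phosphate of Src-family kinases. PU.1 binds DNA through an ETS domain at purine-rich sites with a GGAA core.

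Of the 32 members with a listed promoter, 14 had a summit inside such a promoter in at least 1 library. The share of all genes with such a summit in any library was not counted, and shares by library are given below. Printed here are 5 promoters, chosen after their values were seen. Those of Ptpn7, Ptpn1, Ptpn22 and Ptprj held the highest-scoring summits (533, 192, 107 and 55.0, then 49.6 at Ptprs), and Ptpn6 had its start called in all 7 libraries. Each runs from 250 bases before to 50 after an annotated start (RefSeq, GRCm38.p6, the coordinates of mm10), 5′ to 3′ on the strand of the gene. Capitals mark the ETS-type motif GAGGAA or, for the other strand, TTCCTC, and offsets count from 0 at the start with upstream negative. Ptpn6 (chr6:124738660-124738959, minus strand) and Ptpn1 (chr2:167932077-167932376, plus strand) hold no match to this motif, though both hold the shorter GGAA core, which is not marked. Ptpn7 (chr1:135132450-135132749, plus strand) holds GAGGAA at -16. Ptpn22 (chr3:103859545-103859844, plus strand) holds TTCCTC at -8. Ptprj (chr2:90580546-90580845, minus strand) holds TTCCTC at -224 and GAGGAA at -72.
Ptpn6: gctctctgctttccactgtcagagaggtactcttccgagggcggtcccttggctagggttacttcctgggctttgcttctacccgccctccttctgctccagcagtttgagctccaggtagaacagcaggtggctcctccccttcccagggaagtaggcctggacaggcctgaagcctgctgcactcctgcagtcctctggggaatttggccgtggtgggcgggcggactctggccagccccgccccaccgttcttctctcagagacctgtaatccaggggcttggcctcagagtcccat
Ptpn1: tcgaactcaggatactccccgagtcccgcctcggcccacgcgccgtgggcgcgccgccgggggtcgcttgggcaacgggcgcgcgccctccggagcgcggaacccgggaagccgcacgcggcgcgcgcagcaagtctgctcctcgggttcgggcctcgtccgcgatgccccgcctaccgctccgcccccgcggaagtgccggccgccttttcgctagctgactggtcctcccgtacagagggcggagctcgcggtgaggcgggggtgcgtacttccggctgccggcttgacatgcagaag
Ptpn7: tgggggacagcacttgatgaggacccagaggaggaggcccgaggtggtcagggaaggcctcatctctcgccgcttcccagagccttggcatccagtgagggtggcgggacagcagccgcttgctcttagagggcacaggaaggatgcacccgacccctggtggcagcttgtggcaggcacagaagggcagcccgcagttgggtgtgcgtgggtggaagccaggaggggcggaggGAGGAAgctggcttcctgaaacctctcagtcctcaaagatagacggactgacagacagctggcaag
Ptpn22: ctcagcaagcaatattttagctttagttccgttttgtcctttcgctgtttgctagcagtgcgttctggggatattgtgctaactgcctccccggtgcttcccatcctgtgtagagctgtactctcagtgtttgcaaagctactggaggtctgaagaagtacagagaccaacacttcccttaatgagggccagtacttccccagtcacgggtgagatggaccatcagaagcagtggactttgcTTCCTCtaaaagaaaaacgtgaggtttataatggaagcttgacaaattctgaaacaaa
Ptprj: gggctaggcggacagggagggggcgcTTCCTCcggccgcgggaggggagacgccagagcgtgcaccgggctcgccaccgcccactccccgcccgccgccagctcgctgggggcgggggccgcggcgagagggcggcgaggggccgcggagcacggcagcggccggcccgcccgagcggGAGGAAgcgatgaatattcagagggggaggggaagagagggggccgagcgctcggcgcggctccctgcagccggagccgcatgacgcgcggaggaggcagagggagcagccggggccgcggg

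The Ptpn7 summits fell close to its motif, with offsets of -1, -14 and -38 on days 4, 8 and 12, and -44 and -27 in Day 12- 4 and Day 12- 12. Ptpn7 had no summit in this promoter at day 0 or in Day 12- 8. At Ptprj the summits lay at -90, -88 and -71 on days 0, 8 and 12 and at -92 and -62 in Day 12- 8 and Day 12- 12, around the match at -72. At Ptpn22 the day 4 and day 8 summits lay at -102 and -127. At Ptpn1 the 6 summits lay between -132 and -47, in a window that holds GGAA but not GAGGAA. Around the Ptpn6 start all summits lay between 2 bases upstream and 89 bases downstream, and only that of the library titled Day 12- 4 fell inside the printed window. Promoters were listed for 32 members, with 46 starts between them. Ptpn2, Ptpn12, Ptprb, Ptprd and Ptprq had none listed. GAGGAA on either strand occurred in 21 of these 46 promoters, and in 27.4% of 21262 promoters of protein-coding genes. The longer PU.1-type motif GAGGAAGT, or its reverse complement ACTTCCTC, which contains the shorter motif, occurred in 0 of the 46 and in 3.13% of all. A match is a description of letters and not a binding site, and no match speaks only of the letters in this window.

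Most phosphatase genes carried a called site in most libraries. Days 0, 4, 8 and 12 gave sites to 24, 36, 29 and 35 of the 37 members, beside 36.8%, 69.8%, 61.7% and 77.1% of all protein-coding genes. The knockdown libraries, in title order, gave them to 19, 30 and 35, beside 34.8%, 61.8% and 78.9%. Because long genes hold more summits and many phosphatase genes are long, the background was also taken within length classes (under 50 kb, 50 to 150 kb, and 150 kb or more). Across genes of the members' length classes the shares were 49.8, 82.7, 73.3 and 86.9% for days 0, 4, 8 and 12, against 64.9, 97.3, 78.4 and 94.6% of the members. In title order the knockdown libraries gave 39.4, 72.2 and 89.0% by length class, against 51.4, 81.1 and 94.6%. The highest class has no upper limit, and members such as Ptprd (2271 kb) and Ptprt (1139 kb) are far longer than its bound.

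The blood-restricted members were called in a larger share than the rest in all 7 full lists, and in 6 of 7 lists of equal length. In the gene body alone the order turned in Day 12- 8, where 3 of 5 (60%) were called against 65.6% of the others. Counting only the nearest gene left 4 of 5 at day 0 and in Day 12- 8. The only day 0 call of Ptpn22 lay inside its neighbour Rsbn1. In the full lists 5 of 5 were called in every library except Day 12- 4, where Ptpn22 was not, and the other members in 19, 31, 24 and 30 of 32 cases for days 0, 4, 8 and 12. Genes of the length classes of the blood-restricted members were called in 48.4, 81.2, 72.6 and 86.4% of cases for those days. In the full knockdown lists, in title order, such genes were called in 39.1, 71.2 and 87.8%. Each list was then reduced to its 8043 highest-scoring summits, the length of the day 0 list. Days 0, 4, 8 and 12 then called 24, 17, 17 and 16 of the 37 members, beside 36.8%, 25.5%, 29.2% and 35.2% of all genes. The knockdown lists, in title order, called 17, 16 and 18, beside 31%, 37.8% and 31%. By the members' length classes the shares were 49.8, 34.1, 35.5 and 35.8% for days 0, 4, 8 and 12, then 35.2, 40.2 and 32.9%.

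In these shorter lists days 0, 4, 8 and 12 called 5, 5, 4 and 5 of the 5 blood-restricted members, and the knockdown lists 4, 2 and 4 in title order. Genes of the same length classes were called in 48.4, 33, 35.5 and 37.0% of cases for the 4 days, and in 35.0, 41.1 and 33.4% in the knockdown lists, so Day 12- 8 was the list in which the group did not exceed that share. At days 0 and 12 Ptpn22 was called only through a summit inside its neighbour Rsbn1. At day 12 that summit ranked 8025, close to the cut at 8043. The other 32 members were called in 12, 13 and 11 cases on days 4, 8 and 12. Their shares of 37.5, 40.6 and 34.4% lay near the 34.3, 35.5 and 35.6% of genes in their length classes. For day 0 their share was 59.4% against 50.1%, and in the knockdown lists 40.6, 43.8 and 43.8% against 35.3, 40.0 and 32.8%. No test was made of the difference between the groups, which were named with results of these data known.

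**Figure D1:**
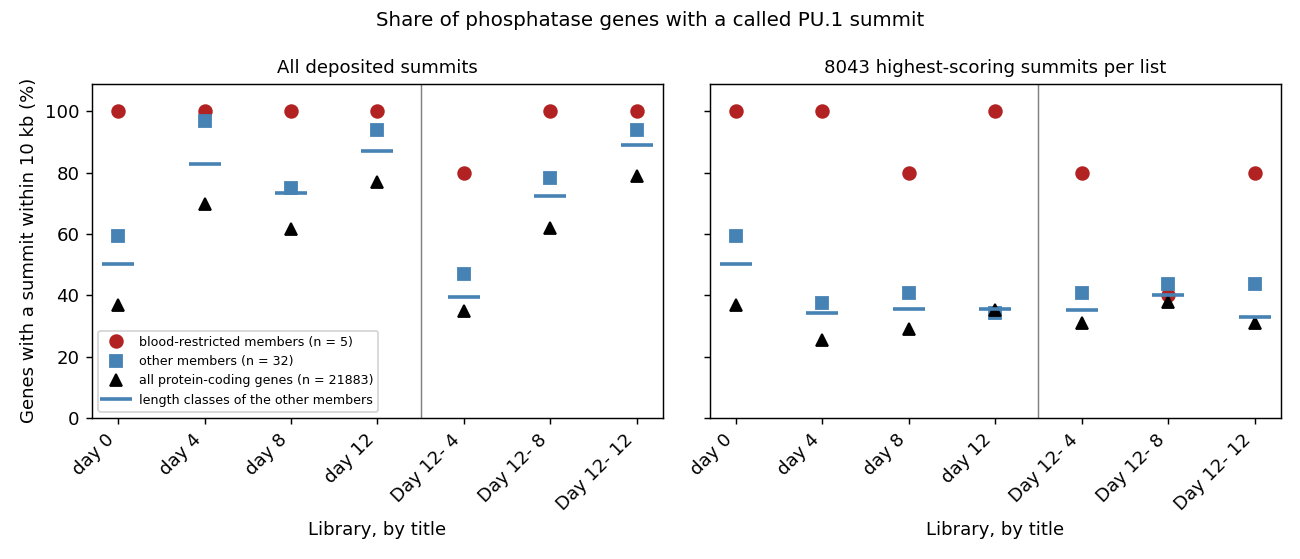
Share of genes (%) with a called PU.1 summit in the body or within 10 kb, by library, for the 5 blood-restricted members, the 32 other members and all protein-coding genes, with horizontal bars for genes in the length classes of the other members. In the 8043-summit lists the blood-restricted members lie at 100% at days 0, 4 and 12 and the others at 37.5% at day 4 and 34.4% at day 12. Ptpn22 counts there at days 0 and 12 through a summit inside its neighbour Rsbn1.

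Summits per length were also higher in the blood-restricted members than in the rest in all 7 full lists. The windows of the blood-restricted members held 9.05 summits per 100 kb at day 4, those of the other members 1.28, and those of all protein-coding genes 3.60. At day 12 the values were 9.90, 2.77 and 6.53 per 100 kb, and the dual-specificity phosphatase genes (Dusp) reached 11.2. The tyrosine kinase genes and the SHP-1 and SHP-2 partner genes counted below held 6.84 and 8.09 at day 4. At day 12 they held 9.885 and 9.05, so a high density was not particular to the blood-restricted members. Ptpre alone held 28 of the 53 summits of the blood-restricted windows at day 4 and 27 of 58 at day 12. The windows of the rest include very long genes such as Ptprd, Ptprt and Ptprn2.

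Of the 37 members, 16 (43.2%) had a site in all 7 libraries, against 17.5% of all protein-coding genes and 22.7% by length class. A further 5 (13.5%) had one in 6 libraries, against 22.1% and 26.5%. The most sparsely called were Ptprz1, whose protein is a chondroitin sulphate proteoglycan of the nervous system, and Ptpn20. Ptprz1 had 1 site, in the library titled Day 12- 12 (score 7.21), and Ptpn20 had 1, at day 4 (score 9.32). These were the 2 members with no site at day 12. Sites that appeared on day 12 in genes lacking any on day 0 were found for 11 of 37 members, against 42.1% of all protein-coding genes. A gene with a day 0 site could not be counted, and 24 of the 37 members had one, against 36.8% of all genes. These shares therefore rest on unlike pools of genes, and no excess or lack is read from them. The 11 were Ptpn4, Ptpn18, Ptpn23, Ptpra, Ptprb, Ptprg, Ptprh, Ptprq, Ptprr, Ptprt and Ptpru. In the equally long lists 2 of 37 were left, Ptpn4 and Ptpn18, against 14.8% of all genes. With scores of at least 10 alone, 18 of 37 had such sites, against 47.1%.

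**Figure D2:**
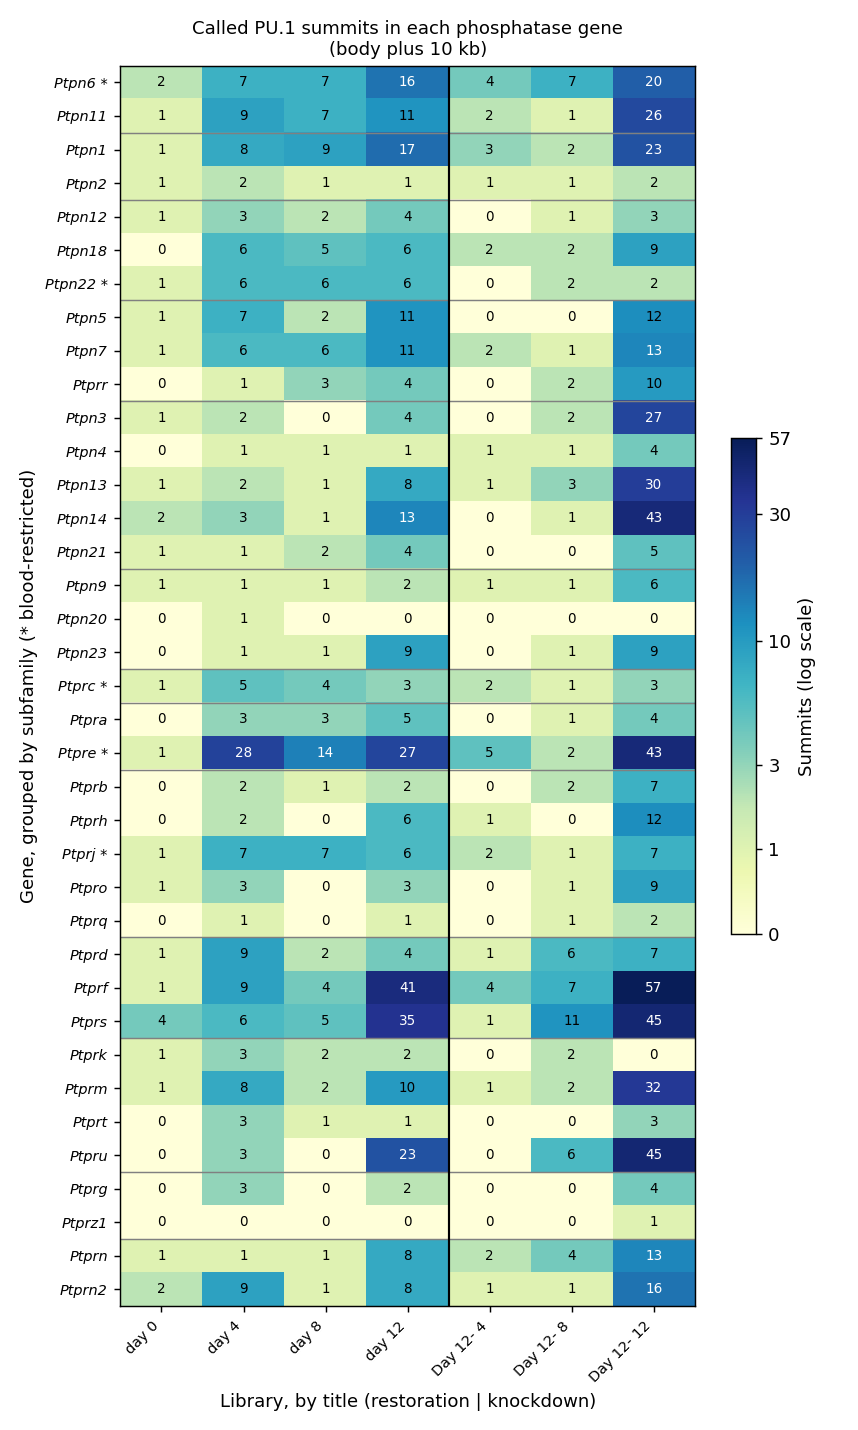
Number of called PU.1 summits in the body or within 10 kb of each of the 37 genes (rows, grouped by subfamily) in each of the 7 libraries (columns), with colour on a log scale. Ptpre holds 28 sites at day 4, Ptprf 41 at day 12 and 57 in the library titled Day 12- 12, and Ptprz1 and Ptpn20 are blank in 6 libraries each.

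Among the cytosolic enzymes, the SH2-domain pair carried sites in every library. Ptpn6, which encodes SHP-1 (chromosome 6, 124720707 to 124738709), had 2, 7, 7 and 16 sites at days 0, 4, 8 and 12, and 4, 7 and 20 in the knockdown libraries in title order. A site at its start (124738620 to 124738711) was called in all 7 libraries, with scores of 10.8, 188, 101 and 645 at days 0, 4, 8 and 12 and 44.1, 29.7 and 110.0 in the knockdown libraries. The day 12 value ranked 157 of 86271 in its list. A second site 5.54 kb downstream of the start, within the gene body (124733128 to 124733213), was missing only from day 0, scoring 112, 118 and 443 for days 4, 8 and 12. Another, at 124712133 to 124712288, scored 272 at day 12 but lay nearest to Emg1, since the window of Ptpn6 takes in several neighbouring genes. Its Day 12- 8 summit lay nearest to Phb2 and, at 32.4, was the highest of the Ptpn6 window in that library.

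Ptpn11 (chromosome 5, 121130533 to 121191397), which encodes SHP-2, had 1, 9, 7 and 11 sites at days 0, 4, 8 and 12 and 2, 1 and 26 in the knockdown libraries. Its highest site in each of days 4, 8 and 12 lay 48.5 to 48.6 kb downstream of the start, with scores of 316, 159 and 148. That site was also called in Day 12- 4 (21.2) and Day 12- 12 (44.8), and not at day 0 or in Day 12- 8. The day 0 and Day 12- 8 calls lay instead at 0.307 and 0.375 kb from the start and scored 6.32 and 16.5. Days 8 and 12 also had 1 summit each within 1 kb of the start, and day 4 had none there. The internal site was thus called at days 4, 8 and 12 but not in the shorter day 0 list, where a missing call does not show absence.

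Ptpn1 and Ptpn2 encode PTP1B and TC-PTP, close relatives that act on JAK kinases, and PTP1B also acts on the insulin receptor. Ptpn1 (chromosome 2, 167930750 to 167979385) held the highest score of all members at day 12, at a site 5567 bp outside the annotated gene and 7.15 kb upstream of its listed start (167925172 to 167925194). That site scored 424, 477 and 849 for days 4, 8 and 12, ranks of 208, 15 and 9 in the lists. It scored 50.9 in Day 12- 4 and 340.3 in Day 12- 12, with no call at day 0 or in Day 12- 8. A site 17.1 kb inside the gene was called in the same 5 libraries, at 238, 200 and 243 on days 4, 8 and 12. The Ptpn1 promoter printed above was called in a different set of libraries, all but day 4, with 33.4, 192 and 187 for days 0, 8 and 12 and 22.4, 22.5 and 22.5 in the knockdown libraries.

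Ptpn2 (chromosome 18, 67665501 to 67724632) had 1 or 2 sites in every library, with the highest score always at the high-coordinate end of the gene. The site at 67724349 to 67724363 scored 82.1, 172 and 234 for days 0, 8 and 12, and 15.2, 64.5 and 31.8 in the knockdown libraries. At day 4 it had no summit within 100 bp, and a neighbouring summit 185 bp outside the gene scored 52.8. At day 0 Ptpn1 was thus called near its listed start and Ptpn2 at its high-coordinate end. Ptpn1 alone of the pair had high-scoring sites elsewhere.

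The PEST group includes Ptpn22, a brake on antigen receptor signalling that binds the kinase Csk, Ptpn12, a regulator of adhesion and migration, and Ptpn18. Ptpn22 (chromosome 3, 103856575 to 103912252) had 1, 6, 6 and 6 sites at days 0, 4, 8 and 12 and 0, 2 and 2 in the knockdown libraries. Its highest day 4 site was the promoter printed above, with a score of 107, called again at day 8 (9.78) and in no other library. The highest sites of its window at day 0 (5.40) and day 12 (81.9) lay inside the neighbouring gene Rsbn1. Of the blood-restricted members Ptpn22 was the only one with no site in Day 12- 4.

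Ptpn18 (chromosome 1, 34459729 to 34473784) had no site at day 0, then 6, 5 and 6 at days 4, 8 and 12 and 2, 2 and 9 in the knockdown libraries. A site at 0.482 to 0.550 kb from its start scored 264, 192 and 468 at days 4, 8 and 12, then 25.1 in Day 12- 4 and 117 in Day 12- 12. Another at 34472736 to 34472869, near the far end of the gene, was called in every library except day 0 and scored 264 at day 12. Ptpn12 (chromosome 5, 20986645 to 21055911) had 1 to 4 sites in all libraries except Day 12- 4, with highest scores of 4.13, 66.8, 51.7 and 57.6 at days 0, 4, 8 and 12. All 3 genes of the group had more sites at day 4 than at day 0 in lists of 57424 and 8043 summits.

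Ptpn7, Ptpn5 and Ptprr carry a kinase interaction motif through which they bind MAP kinases. Ptpn7 (chromosome 1, 135131838 to 135145328), the haematopoietic phosphatase HePTP, had 1, 6, 6 and 11 sites at days 0, 4, 8 and 12 and 2, 1 and 13 in the knockdown libraries. Its only calls at day 0 (7.23) and in Day 12- 8 (3.44) lay outside the gene, in Arl8a. Its promoter scored 103, 99.7 and 533 at days 4, 8 and 12, and 25.9 and 106 in Day 12- 4 and Day 12- 12. A site 1.4 to 1.5 kb upstream scored 169.6, 103 and 429.9 on days 4, 8 and 12 and was called in the same 5 libraries. Ptpn5, known from the striatum, scored 150.5, 55.8 and 42.1 for days 4, 8 and 12, and had no site in Day 12- 4 or Day 12- 8. Ptprr had 0 to 4 sites in the restoration libraries, with a highest score of 19.0 at day 4. Its day 12 maximum of 12.6 lay inside the adjacent member Ptprb, so these neighbours shared that site.

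In the FERM-domain group and the remaining cytosolic members, Ptpn4 and Ptpn9 were called at their starts in nearly every library. Ptpn4 had a single site in each of the libraries from day 4 to Day 12- 8 and 4 in Day 12- 12, always with its highest score within 0.3 kb downstream of its start. This site scored 57.7, 39.4 and 288 at days 4, 8 and 12, and 25.6, 15.9 and 40.2 in the knockdown libraries. Ptpn9, whose product acts on secretory vesicles, had its start site (chromosome 9, 56995090 to 56995118) called in all 7 libraries. The Ptpn9 scores were 104, 26.3, 230 and 268 at days 0, 4, 8 and 12 and 37.6, 65.4 and 53.5 in the knockdown libraries, and at day 0 the site ranked 155 of 8043. Ptpn3, Ptpn13, Ptpn14 and Ptpn21 had day 0 scores of 4.55, 6.46, 11.6 and 4.55 and day 12 scores of 6.45, 9.17, 26.5 and 81.6. The highest of the 4 day 12 sites of Ptpn21 lay in the neighbouring gene Zc3h14. Another lay 13 bases downstream of a listed start of Ptpn21 and scored 30.2. Ptpn23, an endosomal sorting protein, had no day 0 site and scored 17.4 at day 12.

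**Figure D3:**
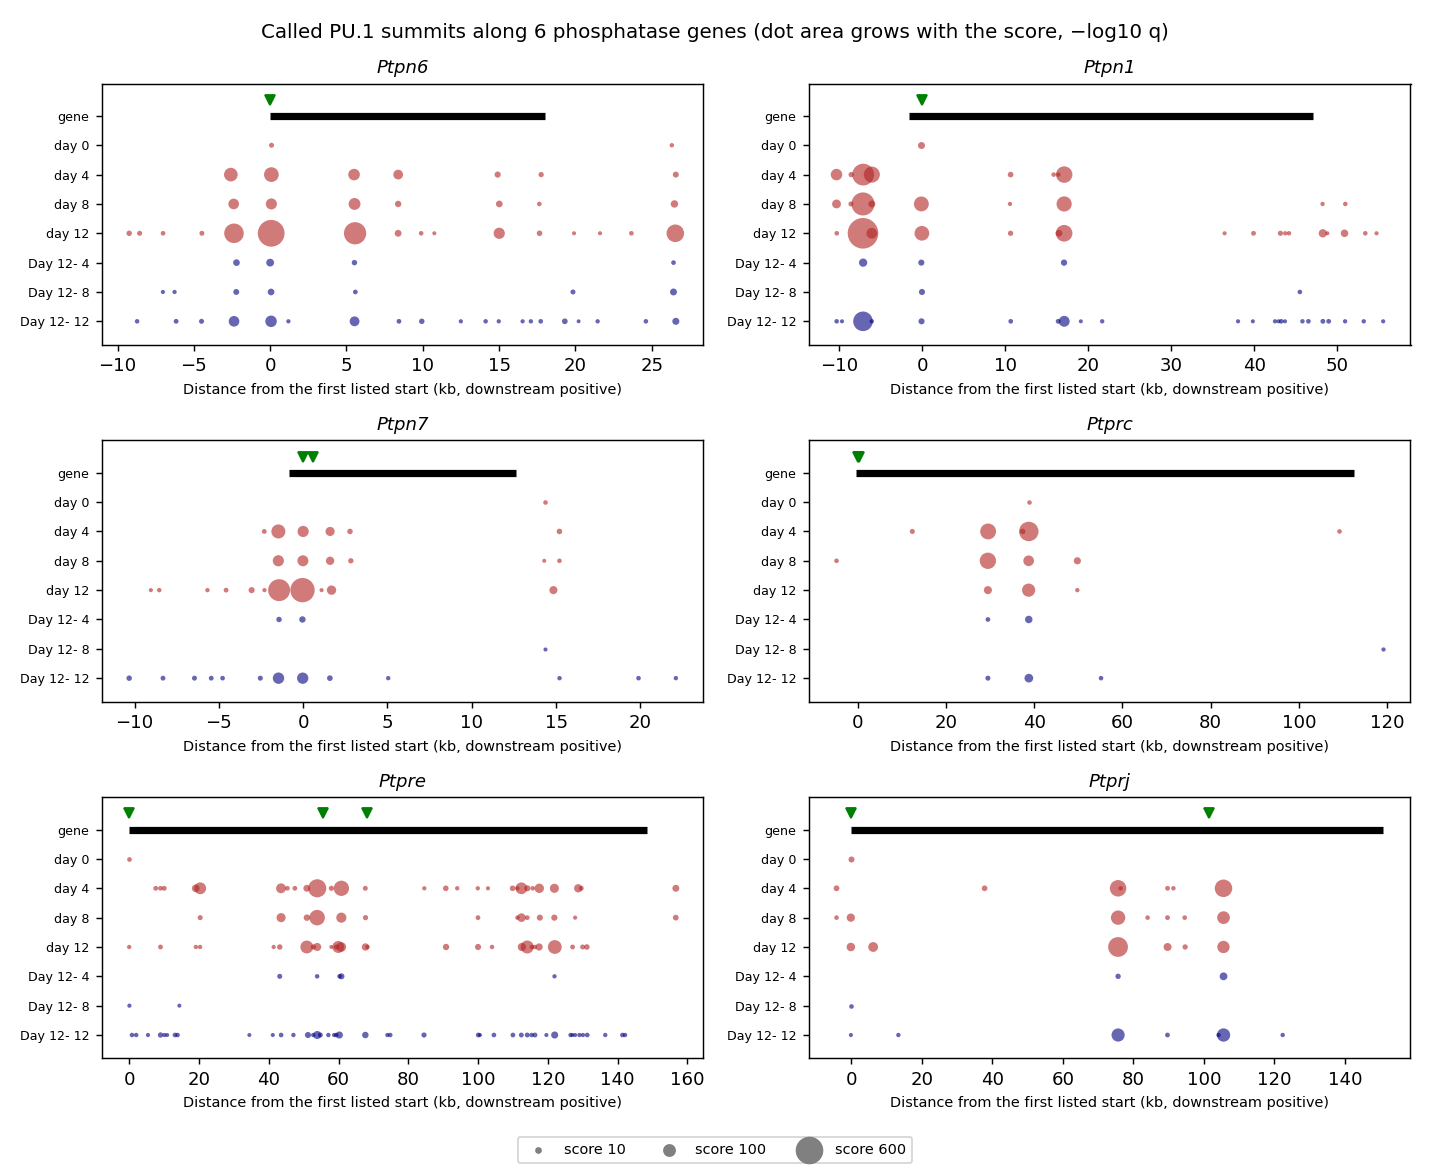
Positions of called PU.1 summits along Ptpn6, Ptpn1, Ptpn7, Ptprc, Ptpre and Ptprj, as distance in kb from the first listed start of each gene, with a row per library, the gene as a black bar, listed starts as triangles and dot area growing with the score. Ptpn6 shows a column of dots at its start in all 7 libraries, and Ptpn1 a column 7.15 kb upstream that is missing at day 0 and in Day 12- 8.

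Among the receptor-type members, Ptprc, which encodes CD45 (chromosome 1, 138062859 to 138175756), carried its high-scoring sites inside the gene and none within 1 kb of a listed start. It had 1, 5, 4 and 3 sites at days 0, 4, 8 and 12 and 2, 1 and 3 in the knockdown libraries. A site at 138136519 to 138136575, 38.6 kb downstream of the nearest listed start, scored 6.94, 338, 93.0 and 148 at days 0, 4, 8 and 12. It scored 39.7 and 57.9 in Day 12- 4 and Day 12- 12 and was not called in Day 12- 8. A second internal site (138145753 to 138145811) scored 219.9, 233 and 48.1 for days 4, 8 and 12. The call of Ptprc in Day 12- 8 was a different site, 6.64 kb outside the gene, with a score of 4.81. Both internal sites were thus called with Dox at days 4, 8 and 12, and the first also without Dox at day 0.

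Ptpre and Ptpra encode related receptors with short extracellular parts that act on Src-family kinases. Ptpre (chromosome 7, 135537824 to 135686294) had more sites than any other member on days 4 (28) and 8 (14) and in Day 12- 4 (5), with 1 on day 0, 27 on day 12, and 2 and 43 in Day 12- 8 and Day 12- 12. Of the 27 day 12 sites, 11 scored at least 20, the most of any member. Its highest site at days 4 and 8 (135591672 to 135591701) lay 1.8 kb upstream of an internal start and scored 290.2 and 210, then 48.1 at day 12. At day 12 the highest was instead at 135659667 to 135659796, with 163 against 63.6 at day 4. Ptpre at day 0 and in Day 12- 8 was called at its first listed start, at 0.047 and 0.041 kb, with scores of 8.18 and 4.22. Ptpra, the more widely expressed relative, had 0, 3, 3 and 5 sites at days 0, 4, 8 and 12, and its day 12 maximum of 45.5 lay beside Mrps26.

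Ptprj (chromosome 2, 90429756 to 90580694), which encodes CD148, showed 2 internal sites apart from its promoter. The site at 90475012 to 90475035 scored 270.3, 136 and 128 at days 4, 8 and 12, and 43.9 and 151 in Day 12- 4 and Day 12- 12. The site at 90504900 to 90504918 scored 239, 178 and 348 at days 4, 8 and 12, and 14.5 and 148 in the same 2 knockdown libraries. Neither was called at day 0 or in Day 12- 8, where the promoter was the single call, with scores of 21.4 and 7.46. Of its structural relatives, Ptprb, Ptprh, Ptpro and Ptprq had highest scores of at most 20.1 in any library. They are known from endothelium (Ptprb), gut epithelium (Ptprh), podocytes (Ptpro) and the inner ear (Ptprq).

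The LAR group, receptors of axon growth and synapses, held the members with most sites at day 12. Ptprf (chromosome 4, 118208213 to 118291405) had 1, 9, 4 and 41 sites at days 0, 4, 8 and 12 and 4, 7 and 57 in the knockdown libraries. Ptprs (chromosome 17, 56412426 to 56476561) had 4, 6, 5 and 35, then 1, 11 and 45. At day 12 only 3 of the 41 Ptprf sites and 6 of the 35 Ptprs sites scored at least 20, against 11 of 27 at Ptpre. Each nevertheless had a high-scoring site. That of Ptprs lay 18.6 kb inside the gene and scored 169, 145 and 511 at days 4, 8 and 12. That of Ptprf lay 4.53 kb upstream of its start and scored 149, 51.8 and 314. Both were called in Day 12- 4 (14.7 and 14.4) and Day 12- 12 (105 and 72.7), and not at day 0. Ptprd, the longest member, had 9 sites at day 4 with a highest score of 100 and 4 at day 12 with 14.8.

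**Figure D4:**
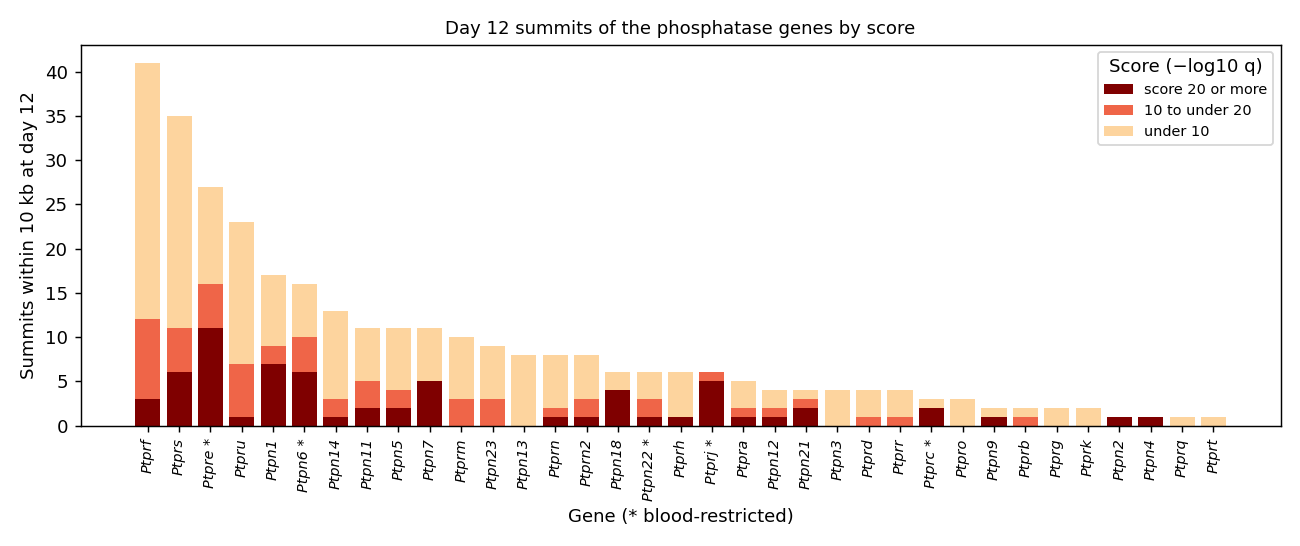
Number of day 12 summits within 10 kb of each member with a site, split by score (−log10 q) into at least 20, 10 to under 20 and under 10. Ptprf has the tallest bar with 41 summits, 3 of them at 20 or more, and Ptpre has the largest count at 20 or more, with 11 of 27.

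The MAM group mediates contact between like cells. Ptpru had 23 sites at day 12 and 45 in Day 12- 12, of which 1 and 0 scored at least 20. Ptprm had 10 and 32 sites in these libraries, with none at 20 or more in either, and scored 100 at day 4. Ptprk scored at most 17.3 in any library and was the only member with a site in all 4 restoration libraries and none in Day 12- 12. Ptprt, with 1139 kb of sequence, had 3 sites at day 4 and 1 at day 12. In the carbonic anhydrase-like pair, Ptprg scored at most 14.5. Among these genes only Ptprm, at day 4, reached a score of 100.

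Ptprn and Ptprn2 encode the secretory granule proteins IA-2 and phogrin, known from neuroendocrine cells. Ptprn (chromosome 1, 75247035 to 75264497) had a site 11.9 to 12.0 kb inside the gene (75251795 to 75251840) in every library except day 0. It scored 87.9, 144 and 518 at days 4, 8 and 12 and 76.9, 56.7 and 162 in the knockdown libraries, and at day 12 ranked 413 of 86271. The day 0 call of Ptprn was at its start, with a score of 18.9. Ptprn2 scored 10.1, 29.9, 5.05 and 92.1 at days 0, 4, 8 and 12. The high score of Ptprn shows that high-scoring calls among the members were not limited to genes known from blood.

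Day 0 calls lay mostly at gene starts and the calls of the other lists mostly elsewhere. Of 27 day 0 summits in windows of members with a listed start, 17 (63.0%) lay within 1 kb of that gene's own start, against 56.7% for all protein-coding genes. At days 4, 8 and 12 the counts were 8 of 155 (5.16%), 12 of 96 (12.5%) and 21 of 303 (6.93%), against 13.5, 23.8 and 15.6% for all genes. In the knockdown libraries they were 6 of 35, 18 of 65 and 20 of 533 (17.1, 27.7 and 3.75%), against 30.5, 41.6 and 8.09%. Long windows lower this share, and it was not standardised for length. A summit inside a printed-length promoter was found for 5 of 32 members at day 0 (15.6%, against 8.60% of genes with a listed promoter), 2 on day 4 (6.25%, against 15.0%), 4 on day 8 (12.5%, against 18.3%) and 8 on day 12 (25%, against 31.0%). The knockdown libraries gave 3, 7 and 6 in title order (9.38, 21.9 and 18.8%, against 8.71, 18.7 and 20.6%), so the members lay above all genes in 3 lists and below in 4.

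Merging summits within 100 bp across the 7 lists gave 888 sites in the members' windows. Of these, 660 (74.3%) were called in 1 library alone, against 72.0% of the 186635 merged sites in windows of all protein-coding genes. These 660 include 386 in Day 12- 12, and 133, 75 and 14 on days 12, 4 and 0. A further 145 were called in 2 libraries. Called in all 7 were 2 (0.225%), the start sites of Ptpn6 and Ptpn9, against 0.473% over all genes' windows. When only the 4 restoration libraries were merged, 3 sites were called in every one, and leaving out Day 12- 4, Day 12- 8 or Day 12- 12 gave 2, 3 and 2. The 8 sites called in 6 libraries were those described at Ptpn1 (promoter), Ptpn2, Ptpn4, Ptpn6 (2 sites), Ptpn18, Ptprc and Ptprn. Of 30 merged sites called at day 0, 15 (50%) were also called in Day 12- 8 and 8 (26.7%) at day 12, against 49.6 and 39.3% over all genes' windows. A further 306 were called on day 12 but not on day 0, and 28, 18 and 140 of these recurred in the knockdown libraries in title order, lists of 9868, 21377 and 148415 summits. These are 9.15, 5.88 and 45.8%, against 7.24, 7.47 and 47.0% over all genes' windows, so the recurrence of members' sites was near that background.

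Tyrosine kinases of the Src, Syk, Tec, JAK and related families numbered 20 genes. They were called in 14, 18, 20 and 19 cases for days 0, 4, 8 and 12, and in 13, 17 and 19 in the knockdown libraries. Genes of their length classes were called in 41.2, 74.2, 66.0 and 80.8% of cases for those days, and in 36.5, 65.4 and 82.3% in the knockdown libraries. The highest day 12 scores were 768 at Btk, 661 at Fes and 509 at Jak3, the last a kinase of cytokine receptors. Partners of SHP-1 and SHP-2, inhibitory receptors and docking proteins, numbered 21 and had a site in 13, 20, 20 and 21 cases at days 0, 4, 8 and 12, and in 12, 15 and 20 in the knockdown libraries. The length-class shares for the partners were 39.7, 72.6, 64.6 and 79.7%, then 36.0, 64.2 and 81.1%. Cd300a, an inhibitory receptor, scored 778, Dok3, a docking protein, 617 and Grb2, an adaptor to Ras, 596 at day 12. Dual-specificity phosphatases of the Dusp series, some of which act on MAP kinases, numbered 24. They had a site in 13, 20, 17 and 23 cases, and in 8, 20 and 21 in the knockdown libraries. The length-class shares for the Dusp genes were 33.7, 66.7, 59.0 and 74.8%, then 33.8, 59.4 and 76.6%. Dusp5, Dusp6 and Dusp7 scored 434, 426 and 396 at day 12. With lists of 8043 summits the kinases had a site in 12 of 20 cases at both day 4 and day 12, the partners in 14 of 21 at both, and the Dusp genes in 9 and 11 of 24, beside 17 and 16 of 37 tyrosine phosphatase genes. Shares over all protein-coding genes were 25.5% and 35.2%. By length class the shares were 28.3 and 36.1% for the kinases, 27.3 and 36.2% for the partners, and 23.5 and 35.0% for the Dusp genes. For the tyrosine phosphatase genes they were 34.1 and 35.8%.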

How the data were processed

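The labels gave 8 samples, and 7 had a file. Peak summits were called with MACS2 on mm10, per the submitters' processing notes. The deposited score is read as −log10 of the peak's q-value, because the lowest value was 1.30104 against 1.30103 for a q limit of 0.05. The MACS2 version, aligner, control, filters, depth and whether libraries were pooled are not given in the sources used here. Summits were assigned to protein-coding genes of a RefSeq table (GRCm38.p6, the coordinates of mm10) with Python 3.11.15, numpy 2.4.6 and pandas 2.3.3, and plotted with matplotlib 3.10.9. Starts and promoters came from a RefSeq promoter table of the same build. Counting was tested on simulated data. Groups follow the titles, since titles and treatment labels of the knockdown libraries disagree. Members and lists were chosen with earlier results of these data known. Named with values were the blood-restricted members, the 10 other members with the highest day 12 score, those with a day 0 site or no day 12 site, and the member with most sites per library. Others were added after their values were seen. No random gene sampling was made. Alternatives were the gene body alone, scores of at least 10, equal list lengths, the nearest gene only, merging at 50 or 200 bp, and leaving out knockdown libraries, the last chosen after seeing the data.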

Additional observations from a re-analysis of the deposited data

How the results depend on the processing

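Of 66 values recomputed under an alternative, 52 stayed within 1.5 times the value reported. Equal list lengths left 17, 17 and 16 members with a site on days 4, 8 and 12, 16 and 18 in Day 12- 8 and Day 12- 12, 2 blood-restricted members in Day 12- 8, and 2 members with sites on day 12 but not on day 0. Scores of at least 10 left 11 members on day 0 and 12 in Day 12- 8, of them 2 and 2 blood-restricted. With that limit 18 members, beside 47.1% of all genes, had sites on day 12 but not on day 0, above the 11 reported. In the gene body alone the blood-restricted members numbered 3 in Day 12- 8, a smaller share (60%) than that of the other members (65.6%). Counting only the nearest gene moved none of these 15 counts by over 1.5 times. Sites called in every library numbered 1 when merged at 50 bp and 3 at 200 bp, and 2 to 3 without each knockdown library. Equal list lengths and the score limit used fewer summits. The gene body alone and merging at 50 bp kept the full lists and changed the window or the merging distance. At scores of at least 10, 11 members had a day 0 site, against 24 in the full list. No paired analysis was possible because every title had 1 library. Depth was unknown, so no limit on missed sites could be given.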

Other observations

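Left out by the naming rule, Ptprcap, which encodes a protein that associates with CD45 (chromosome 19, 4154646 to 4156710), had a site in all 7 libraries. It had 1, 6, 5 and 10 sites at days 0, 4, 8 and 12 and 1, 4 and 12 in the knockdown libraries. Its highest scores were 99.98, 60.2, 201 and 358 at days 0, 4, 8 and 12, and 76.6, 120.3 and 136 in the knockdown libraries, at sites outside the gene. The pseudogene Ptprv (chromosome 1, 135108498 to 135132575) overlaps the start of Ptpn7, and its highest-scoring sites at days 4, 8 and 12 were those of Ptpn7, with 169.6, 103 and 533.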
